A study of Mus musculus with 6 samples.

Results

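Iron enters most cells bound to transferrin, which is taken up by the transferrin receptor, and is then carried across the endosomal membrane, used, stored in ferritin, or exported through ferroportin. Part of it goes to mitochondria, where the first and last steps of heme synthesis take place, and heme is broken down again by heme oxygenase, which releases the iron. In fat cells heme is needed for the cytochromes of the respiratory chain and for catalase, and the demand for iron is known to rise as mitochondria are built during adipocyte differentiation. Here 10 genes of this system were followed in the RNA of cultured mouse cells induced to become adipocytes. They are the iron carrier Trf, the receptor Tfrc, the iron transporter Slc11a2, the exporter Slc40a1, the ferritin chains Fth1 and Ftl1, the heme synthesis enzymes Alas1, Urod and Fech, and the heme oxygenase Hmox1. All 10 were found by symbol among the 53801 genes of the count table, and all 10 passed the filter on low counts that left 14816 genes for testing.

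Stromal vascular fraction cells are the cells of fat tissue other than mature adipocytes, and they include adipocyte progenitors. They were taken from inguinal white fat of Ythdf1 knockout mice or of wild-type mice, cultured, and induced to become adipocytes for 4 days, and their total RNA was sequenced after removal of ribosomal RNA. There were 3 libraries of each genotype, described by the series as biological replicates. The labels give no age, sex or strain, and they do not say which part of Ythdf1, a gene for a cytoplasmic reader of the m6A mark on RNA, was removed or whether the deletion was limited to a cell type. The labels do not say whether replicates came from separate animals or from pools of them.

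Total counts per library lay between 16619605 and 20089138, so that 3 counts stood for 0.149 to 0.181 in CPM, the count scaled by the size of the library. Ythdf1 itself was at 43.8 ± 1.15 CPM in knockout, against 61.8 ± 1.34 CPM for wild type (mean ± SD, n = 3 each, as throughout), with no overlap but with most of its signal left, so it checks the labels only in part. Adipocyte markers were present in both genotypes and higher in knockout. The 8 genes, among them Fabp4 and Adipoq, summed to 12248 to 16724 CPM in knockout, against 2079 to 3218 CPM for wild type. No library came from cells before induction, so how far either genotype had differentiated was not measured. The summed level of 12 macrophage markers was 179, 162 and 428 CPM in knockout replicates 1 to 3 and 57.1 to 71.7 CPM in wild type, so that knockout replicate 3 stood apart. Of the 12, 9 passed the test as higher, and Cd163, a receptor by which macrophages take up hemoglobin, was at 0.843 ± 0.832 against 1.04 ± 0.284 CPM. Markers of red cell precursors, the other large users of iron, were near 0: 10 of them together reached 1.02 to 1.44 CPM in knockout, against 1.64 to 1.99 CPM for wild type, and Slc4a1 and Gata1 had no count in any library. In bulk RNA, a larger number of cells of a type and more RNA per cell cannot be told apart.

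Several of these mRNAs carry an iron responsive element, a short hairpin in an untranslated region (UTR) that is bound by iron regulatory proteins when iron is scarce. Binding in the 5′ UTR blocks translation, as in ferritin and ferroportin mRNA, and binding in the 3′ UTR protects the mRNA from decay, as in transferrin receptor mRNA. The sequences are shown to mark the mRNAs of the set in which the search below found such a hairpin. A hairpin was searched for as C, then 5 bases, then the loop CAGTGN, then 5 bases that pair with the first 5, with G-T pairs allowed, on the transcript strand only, in the protein-coding transcripts of GENCODE mouse release M21 on GRCm38. Matches in a UTR were found in 4 of the 10 genes and in 160 of 21866 protein-coding genes (0.732%). They are printed as DNA, 5′ to 3′, with the bulged C and the 6-base loop in capitals.
Fth1, 5′ UTR, chr19:9982733-9982760, plus strand: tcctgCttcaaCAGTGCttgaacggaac
Ftl1, 5′ UTR, chr7:45459779-45459806, minus strand: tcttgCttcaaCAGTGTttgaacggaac
Slc40a1, 5′ UTR, chr1:45925465-45925492, minus strand: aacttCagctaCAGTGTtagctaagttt
Tfrc, 3′ UTR, chr16:32631220-32631247, plus strand: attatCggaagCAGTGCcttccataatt
Tfrc, 3′ UTR, chr16:32631599-32631626, plus strand: attatCgggagCAGTGTcttccataatg
Tfrc, 3′ UTR, chr16:32631664-32631691, plus strand: tatatCggagaCAGTGAtctccatatgt
Tfrc, 3′ UTR, chr16:32631711-32631738, plus strand: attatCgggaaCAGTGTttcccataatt
Both ferritin chains and Slc40a1 carry 1 match each in the 5′ UTR, and Tfrc carries 4 in its 3′ UTR. A match describes the letters only, and elements of another shape, such as the one known in an isoform of Slc11a2, were not searched for.

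Of the 10 genes, 5 rose in the knockout and 0 fell, by edgeR's quasi-likelihood test with a threshold of 0.05 on the adjusted p: Alas1, Trf, Hmox1, Urod and Slc11a2. Of all genes tested, 44.3% passed, 22.6% as higher and 21.7% as lower. These shares are also the background for the counts of markers and list genes given here. The 5 of 10 higher lie above the background share and the 0 of 10 lower below it. The 10 genes were chosen with earlier results of these data known, so this comparison is a description and not a test. The median log2 fold change of the 10 was 0.46, against 0.0084 over all tested genes, and 9 of 10 had a positive sign. The 3 knockout libraries lay wholly above the 3 wild-type libraries for 7 of the 10, against 27.9% of all genes, and wholly below for 0 of 10, against 27.3%; either kind of separation was seen in 55.2% of all genes. The markers of adipocytes rose along with the 5 genes, 8 of 8 of them. Of 8 markers of progenitors and fibroblasts 5 were lower, with a summed level of 11608 to 12070 CPM in the knockout libraries and 22120 to 23297 CPM in the others. The part of either marker list in these differences was not tested. None of the 4 genes with a hairpin match, Fth1, Ftl1, Slc40a1 and Tfrc, passed the test. Slc11a2, whose known element in an isoform was not searched for, did pass. Among all 129 tested genes with a hairpin match, 31 were higher and 28 lower, with a median log2 fold change of -0.02.

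**Figure D1:**
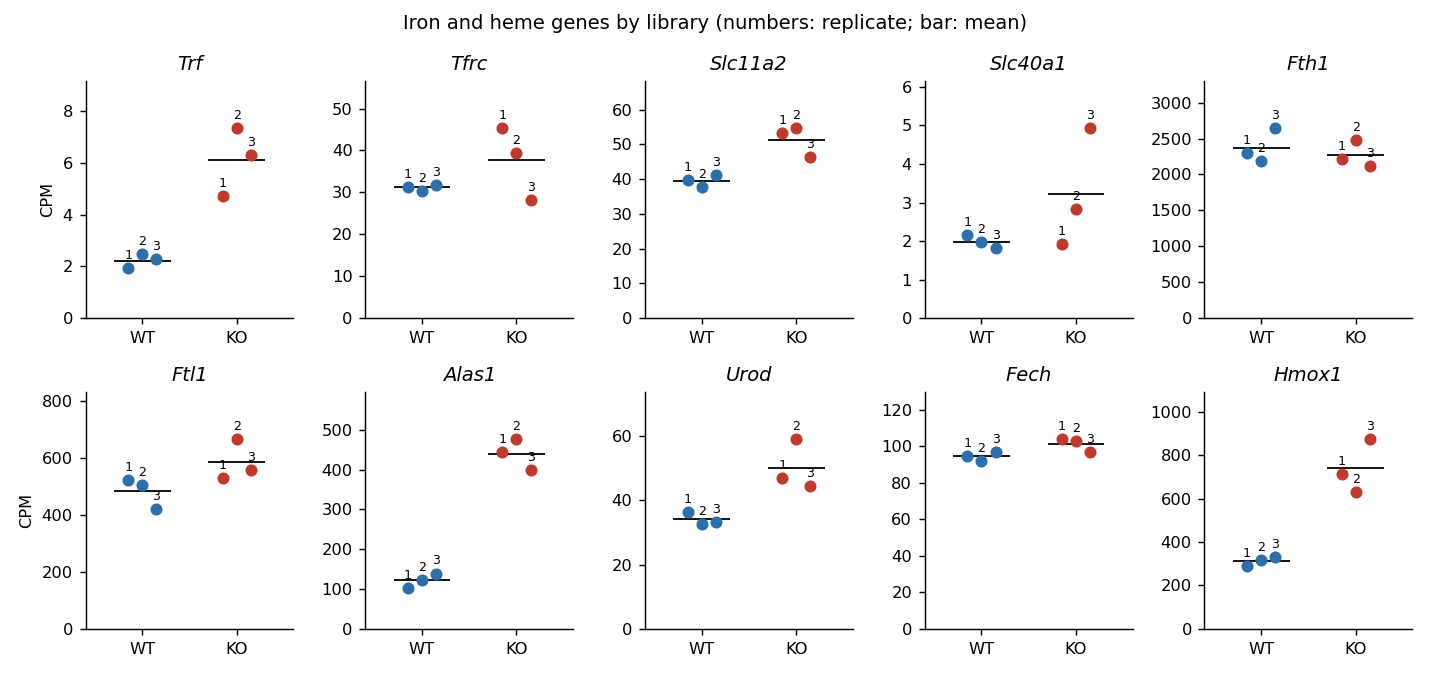
CPM of each gene (vertical axes, linear and starting at 0) in the 3 wild-type and 3 knockout libraries, with the replicate number beside each point and a bar at the group mean. Alas1, Trf and Hmox1 show the widest gaps between genotypes, Fth1 overlaps, and knockout replicate 3 is the lowest point of Tfrc and the highest of Slc40a1.

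**Figure D2:**
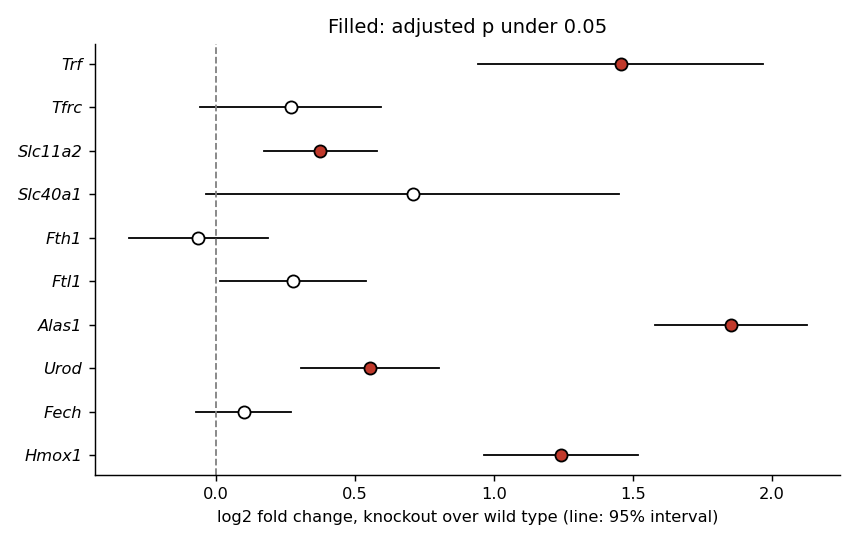
Log2 fold change of each gene, knockout over wild type (horizontal axis), with its 95% interval as a line; filled points passed the adjusted p of 0.05. Alas1 lies highest at 1.85, and Fth1 is the single negative value at -0.06.

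Trf (ENSMUSG00000032554, GRCm38 chr9:103204001-103230444, minus strand) makes transferrin, the carrier of iron in blood and extracellular fluid. It was at 4.73, 7.33 and 6.29 CPM in knockout replicates 1 to 3 and at 1.92, 2.47 and 2.29 CPM in wild-type replicates 1 to 3. Every knockout library was above every wild-type library. The log2 fold change was 1.46 ± 0.23 (SE), a fold of 2.74 with a 95% interval from 1.92 to 3.92 (edgeR adjusted p = 0.000423). Transferrin is also a product of liver, and 8 hepatocyte markers summed to 42.5 to 63.9 CPM in knockout libraries and 38.3 to 51.6 CPM in wild-type libraries, with 1 higher and 4 lower. The higher one was Cyp2e1, a cytochrome P450 gene, which went from 3.67 ± 1.03 CPM in wild type to 35.7 ± 14.9 CPM, whereas the albumin gene Alb fell from 27.7 ± 5.30 to 12.1 ± 2.55 CPM. The part of such cells in the Trf difference was not tested. The values of Trf rest on 86 to 129 counts in knockout and 34 to 40 in wild type. The predicted gene Gm20425 shares 2108 exon bases with Trf on the same strand and had 0 counts in every library, and whether reads there were counted for Trf or discarded is not given in the sources used here.

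Tfrc (ENSMUSG00000022797, GRCm38 chr16:32608920-32632794, plus strand) encodes the transferrin receptor, whose mRNA carries the 4 hairpins shown above. It was at 45.2, 39.4 and 28.3 CPM in the knockout libraries, and at 31.4, 30.4 and 31.8 CPM in the wild-type libraries. Knockout replicates 1 and 2 were above the wild-type libraries and replicate 3 was below them. The fold came to 1.20 (95% interval 0.962 to 1.51), and did not pass (edgeR adjusted p = 0.164). Without knockout replicate 3 the log2 fold change went from 0.27 to 0.44 and passed (edgeR adjusted p = 0.00352). That library also held the highest level of macrophage markers, whose part in this difference was not tested.

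Slc11a2 (ENSMUSG00000023030, GRCm38 chr15:100387898-100425072, minus strand) encodes the transporter DMT1, which moves ferrous iron out of the endosome. It was at 53.3, 54.6 and 46.3 CPM in the knockout libraries, and at 39.9, 37.7 and 41.3 CPM in the wild-type libraries, with no overlap. The fold came to 1.30 (95% interval 1.13 to 1.49, log2 0.37 ± 0.09, edgeR adjusted p = 0.00653). Slc11a2 is also made in gut lining, and of 12 markers of that tissue, 10 of them tested, 8 were lower and 0 higher, with a summed level of 29.3 to 31.3 CPM in knockout, against 52.1 to 58.0 CPM for wild type. The part of such cells was not tested.

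The endosome also needs a reductase that turns ferric into ferrous iron, a role of the Steap family. Of 12 other tested genes of iron uptake and reduction, 3 were higher and 2 lower, close to the shares over all genes, with a median log2 fold change of -0.06. Steap4, a metalloreductase of adipocytes, rose from 137 ± 36.1 CPM in wild type to 494 ± 16.2 CPM in knockout (log2 1.85 ± 0.17). Lcn2, which binds the iron-carrying siderophores of bacteria, rose from 82.2 ± 16.4 to 182 ± 41.2 CPM (log2 1.15 ± 0.19). Steap3 rose by 0.35 on the log2 scale, while Steap2 fell by 0.40 and Steap1 by 0.38. The calls of Steap3 and Steap1 were not secure, since each was lost without knockout replicate 1 (edgeR adjusted p = 0.0825 and 0.0968) or wild-type replicate 1 (0.0846 and 0.0903), and that of Steap3 also without wild-type replicate 2 (0.0919).

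Slc40a1 (ENSMUSG00000025993, GRCm38 chr1:45908068-45926523, minus strand) encodes ferroportin, the known iron exporter of vertebrate cells, and is abundant in macrophages that recycle iron. It was at 1.92, 2.84 and 4.92 CPM in the knockout libraries, and at 2.15, 1.98 and 1.83 CPM in the wild-type libraries. Knockout replicate 3 was the highest library and knockout replicate 1 lay within the wild-type range. The fold came to 1.63 (95% interval 0.976 to 2.73), and did not pass (edgeR adjusted p = 0.113), on 32 to 101 counts per library. Its log2 fold change of 0.71 depended on the library, at 0.26 without knockout replicate 3 (edgeR adjusted p = 0.532) and 0.97 without knockout replicate 1 (0.0351). Beside these values the macrophage marker sum was 179, 162 and 428 CPM in knockout replicates 1 to 3, and its part was not tested.

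Exported iron is oxidised by ferroxidases before transferrin can bind it. The 3 genes of that group all passed the test in different directions, against 44.3% of all tested genes passing in either direction. Hephl1 rose from 2.39 ± 1.07 to 8.70 ± 1.02 CPM (log2 1.87 ± 0.27, and 2.28 without wild-type replicate 2) and ceruloplasmin, Cp, from 198 ± 57.2 to 365 ± 39.1 CPM (log2 0.88 ± 0.19). Hephaestin, Heph, fell from 30.8 ± 2.05 to 22.7 ± 2.70 CPM (log2 -0.44 ± 0.11). The call for Cp was lost without knockout replicate 2 (edgeR adjusted p = 0.0611).

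Ferritin is a shell built of heavy chains, which oxidise iron as it enters, and light chains, which help it to form the mineral core. Fth1 (ENSMUSG00000024661, GRCm38 chr19:9980598-9985098, plus strand), the heavy chain gene, was at 2212, 2479 and 2117 CPM in the knockout libraries, and at 2292, 2185 and 2640 CPM in the wild-type libraries. The genotypes overlapped, with a fold of 0.956 and a 95% interval from 0.805 to 1.14 (edgeR adjusted p = 0.681). Ftl1 (ENSMUSG00000050708, GRCm38 chr7:45457944-45459884, minus strand), the light chain gene, was at 528, 665 and 558 CPM in the knockout libraries, and at 522, 503 and 421 CPM in the wild-type libraries. All 3 knockout libraries were above the wild-type libraries, by a margin of 528 to 522 CPM at the closest, and the fold of 1.21, with a 95% interval from 1.01 to 1.45, did not pass (edgeR adjusted p = 0.0827). Annotated pseudogene copies took 0.479% to 0.791% of the Ftl1 count of a library, most of it in Ftl1-ps1 with 29 to 70 counts, and at most 0.0161% of the Fth1 count.

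Within a library, Fth1 had 4.19, 3.73 and 3.80 counts per count of Ftl1 in the knockout libraries, against 4.39, 4.34 and 6.27 for wild type. Every knockout ratio was below every wild-type ratio, but wild-type replicate 3 stood far above the other libraries. The log2 ratio was lower by 0.34 in knockout, a knockout minus wild-type difference of -0.34 that became -0.16 without wild-type replicate 3. Its exact two-sided permutation p was 0.1, the smallest that 3 against 3 libraries allow, and 0.167 after Benjamini-Hochberg adjustment over the 5 ratios computed. The list of iron storage, chaperoning and release held 5 other tested genes, not all of them storage genes. Ncoa4, which delivers ferritin to lysosomes for breakdown, rose from 63.2 ± 0.722 to 85.3 ± 3.83 CPM (log2 0.43 ± 0.08). The oxygen-response factor Hif1a fell from 699 ± 87.3 to 259 ± 45.9 CPM (log2 -1.43 ± 0.14), and the other 3, the iron chaperones Pcbp1 and Pcbp2 and the nucleoporin Nup214, did not pass.

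The other ratios were computed in the same way. The ratio of receptor to storage, Tfrc to Fth1, was 0.0205, 0.0159 and 0.0134 in the knockout libraries, against 0.0137, 0.0139 and 0.0121 for wild type, and the genotypes overlapped (exact permutation p = 0.3, adjusted 0.375). The ratio of Slc40a1 to Tfrc, exporter to receptor, was 0.0425, 0.0720 and 0.174 in the knockout libraries, against 0.0685, 0.0650 and 0.0575 for wild type (exact permutation p = 0.7, adjusted 0.7). It spanned the whole wild-type range within the knockout, and its difference of 0.35 on the log2 scale turned to -0.20 without knockout replicate 3. The ratio of Trf to Tfrc was 0.104, 0.186 and 0.222 in knockout, above the 0.0613, 0.0813 and 0.0718 of wild type. The ratio of Alas1 to Hmox1, heme synthesis to heme breakdown, was 0.624, 0.754 and 0.457 in knockout, above the 0.355, 0.389 and 0.420 of wild type. For both of these the exact permutation p was 0.1, the smallest possible, and the adjusted value 0.167.

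The list of iron sensing and systemic control, not all of whose genes are sensors, moved in both directions. Of 9 tested, 4 were higher and 4 lower, 44.4% each, against 22.6% and 21.7% of all tested genes. Aco1, the cytosolic aconitase that becomes iron regulatory protein 1 when it loses its iron-sulphur cluster, rose from 75.8 ± 10.04 to 218 ± 16.6 CPM (log2 1.52 ± 0.11, edgeR adjusted p = 1.58e-06). Ireb2, the gene of iron regulatory protein 2, was lower, at 85.6 ± 3.40 against 104 ± 4.98 CPM (log2 -0.27 ± 0.08), and Fbxl5, which marks that protein for breakdown when iron is plentiful, rose from 104 ± 1.44 to 163 ± 19.3 CPM (log2 0.65 ± 0.10). Hfe, the gene of a protein that binds the transferrin receptor, rose from 27.9 ± 2.46 to 59.0 ± 1.83 CPM (log2 1.08 ± 0.09). Bmp6, a signal that induces hepcidin in liver, fell from 9.49 ± 0.363 to 2.93 ± 0.316 CPM (log2 -1.69 ± 0.17), and the receptor gene Neo1 fell by 0.33 on the log2 scale. The calls of Ireb2 and Neo1 were lost without wild-type replicate 2 (edgeR adjusted p = 0.0633 and 0.0942), where 5 of the 9 genes passed in place of 8, and that of Ireb2 also without knockout replicate 1 (0.0591) or wild-type replicate 1 (0.0592). The hepcidin gene Hamp had 0 to 12 counts per library and was too low to test.

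Alas1 (ENSMUSG00000032786, GRCm38 chr9:106233455-106248654, minus strand) encodes the first and rate-limiting enzyme of heme synthesis outside red cells. It was at 445, 476 and 399 CPM in the knockout libraries, and at 102, 124 and 139 CPM in the wild-type libraries. The lowest knockout library was more than any wild-type library by a wide margin, and the fold came to 3.61 (95% interval 2.99 to 4.36, log2 1.85 ± 0.12, edgeR adjusted p = 1.19e-06). Of all tested genes, 3.21% had a larger log2 fold change. Its erythroid counterpart Alas2 had 5 to 12 counts in a library.

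Urod (ENSMUSG00000028684, GRCm38 chr4:116989965-116994413, minus strand) encodes the cytosolic enzyme that makes coproporphyrinogen. It was at 46.8, 58.9 and 44.4 CPM in the knockout libraries, and at 36.4, 32.6 and 33.1 CPM in the wild-type libraries, without overlap. The fold came to 1.47 (95% interval 1.23 to 1.75, log2 0.55 ± 0.11, edgeR adjusted p = 0.00218). Fech (ENSMUSG00000024588, GRCm38 chr18:64452914-64490251, minus strand) encodes ferrochelatase, which inserts iron into protoporphyrin at the end of the pathway. It was at 104, 103 and 97.0 CPM in the knockout libraries, and at 94.95, 92.0 and 96.8 CPM in the wild-type libraries. The groups were separated only by 97.0 against 96.8 CPM, and the fold of 1.07, with a 95% interval from 0.952 to 1.21, did not pass (edgeR adjusted p = 0.329).

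In pathway order, 7 enzymes of heme synthesis gave 5 higher (71.4%) and 1 lower (14.3%), against 22.6% and 21.7% of all tested genes. The rises were smaller towards the end. After Alas1 came Alad, from 8.14 ± 0.971 to 15.5 ± 3.92 CPM (log2 0.93 ± 0.19), and then Uros, from 8.68 ± 0.148 to 14.1 ± 1.56 CPM (0.69 ± 0.13). Urod followed with 0.55. Cpox, a mitochondrial enzyme that oxidises coproporphyrinogen, was the exception and fell from 42.8 ± 0.403 to 34.4 ± 0.217 CPM (log2 -0.32 ± 0.08, edgeR adjusted p = 0.00771). Ppox, the enzyme before ferrochelatase, rose from 33.0 ± 0.579 to 40.8 ± 2.44 CPM (log2 0.31 ± 0.09), a call lost without wild-type replicate 2 (edgeR adjusted p = 0.0598). The trend along the pathway is a description, and differences between enzymes were not tested.

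**Figure D3:**
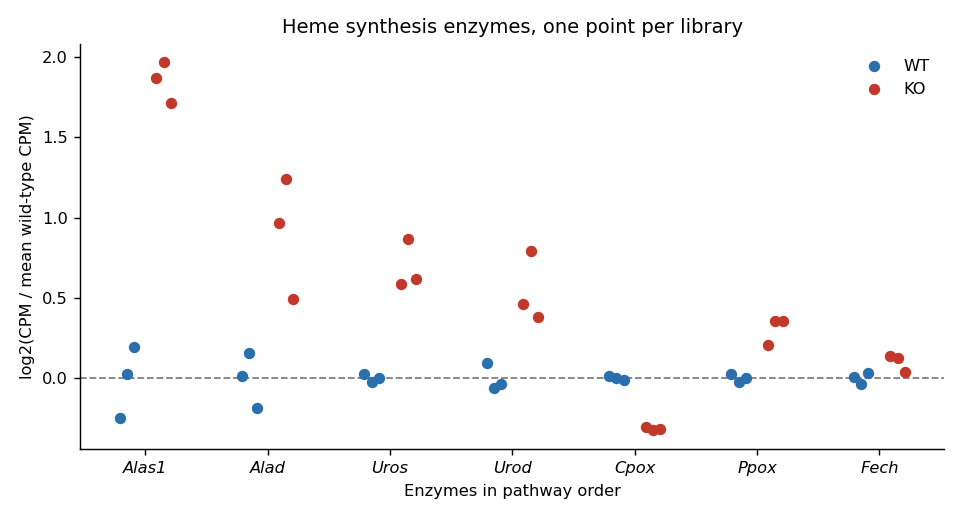
The 7 enzymes in pathway order (horizontal axis) with the log2 ratio of each library's CPM to the mean wild-type CPM (vertical axis), 3 wild-type and 3 knockout points per enzyme. Knockout points lie highest for Alas1, below the line for Cpox alone, and close to it for Fech.

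Of 12 tested heme synthesis genes other than Alas1, Urod and Fech, 9 were higher (75%) and 1 lower (8.33%). The shares over all tested genes were 22.6% and 21.7%. The median log2 fold change of the 12 was 0.47. Clpx, a mitochondrial unfoldase that activates and turns over the Alas1 protein, rose from 39.7 ± 1.47 to 92.1 ± 13.3 CPM (log2 1.21 ± 0.11). Slc25a39, a mitochondrial carrier of glutathione, rose from 90.4 ± 3.66 to 175 ± 31.99 CPM (log2 0.96 ± 0.12).

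Hmox1 (ENSMUSG00000005413, GRCm38 chr8:75093621-75100589, plus strand) encodes the inducible heme oxygenase, which opens the heme ring and releases iron, carbon monoxide and biliverdin. It was at 713, 632 and 873 CPM in the knockout libraries, and at 289, 318 and 331 CPM in the wild-type libraries. No knockout library came near the wild-type range, and the fold came to 2.36 (95% interval 1.95 to 2.86, log2 1.24 ± 0.13, edgeR adjusted p = 1.47e-05). Knockout replicate 3, the highest in macrophage markers, was also the highest in Hmox1, a gene that macrophages express strongly. Without that library the log2 fold change was 1.11 (edgeR adjusted p = 3.44e-06). Knockout replicates 1 and 2, with 179 and 162 CPM of macrophage markers, were also above the 57.1 to 71.7 CPM of the wild-type libraries, and the part of these cells in the Hmox1 difference was not tested.

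**Figure D4:**
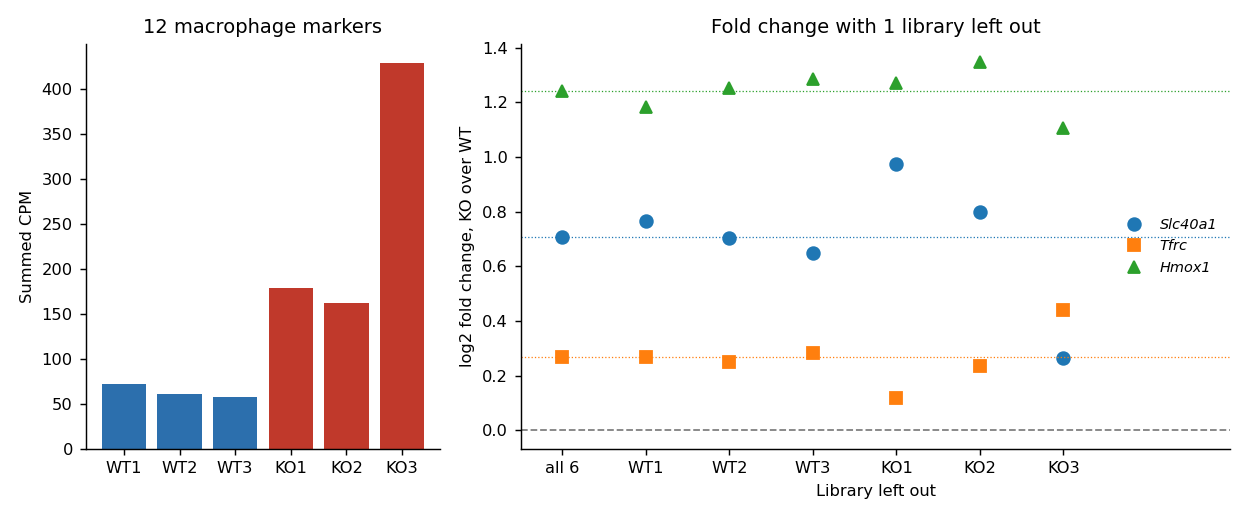
Left, the summed CPM of 12 macrophage markers in each library (bars). Right, the log2 fold change of Hmox1, Tfrc and Slc40a1 with all 6 libraries and with each library left out in turn (horizontal axis). Leaving out knockout replicate 3 moves Slc40a1 from 0.71 to 0.26 and Tfrc from 0.27 to 0.44, while Hmox1 is at 1.11.

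Of 13 other tested genes of heme breakdown, transport and sensing, 6 were higher (46.2%) and 1 lower (7.69%). Over all tested genes the shares were 22.6% and 21.7%, and the median log2 fold change of the 13 was 0.21. The gene that fell was Bach1, a repressor of Hmox1 that is released from DNA by heme, at 52.2 ± 6.30 CPM in knockout, against 78.3 ± 2.26 CPM for wild type (log2 -0.58 ± 0.10, edgeR adjusted p = 0.000496). The constitutive heme oxygenase Hmox2 did not pass, at 47.2 ± 2.46 against 40.7 ± 4.94 CPM (edgeR adjusted p = 0.115). Blvra, which reduces biliverdin to bilirubin, rose by 0.55 on the log2 scale. The transporter gene Flvcr2 rose from 1.28 ± 0.230 to 3.41 ± 0.351 CPM (log2 1.41 ± 0.27), the heme-binding protein gene Hebp1 from 15.7 ± 2.08 to 27.9 ± 5.86 CPM (0.83 ± 0.16), and haptoglobin, Hp, a hemoglobin-binding protein that adipocytes secrete, from 1109 ± 209 to 1877 ± 267 CPM (0.76 ± 0.15).

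Mitochondria use iron also for iron-sulphur clusters, and this list showed the largest share of rises of the 9 compared. Of 20 tested genes, 16 were higher (80%) and 1 lower (5%), against 22.6% and 21.7% of all tested genes. The median log2 fold change of the list was 0.75. Abcb8, a mitochondrial transporter linked to iron export, rose from 11.2 ± 1.29 to 33.1 ± 3.67 CPM (log2 1.56 ± 0.13). The ferredoxin gene Fdx1 rose from 14.0 ± 1.75 to 46.0 ± 11.3 CPM (1.71 ± 0.17), and the mitochondrial chaperone gene Hspa9 from 437 ± 28.2 to 986 ± 150 CPM (1.17 ± 0.12). Fdx2, the other ferredoxin gene of the list, had 1 to 7 counts per library and was too low to test. The mitoferrins, which carry iron into mitochondria, went apart: Slc25a37 fell from 84.6 ± 5.11 to 56.3 ± 9.91 CPM (log2 -0.59 ± 0.12) and Slc25a28 rose from 18.6 ± 1.21 to 27.97 ± 1.14 CPM (0.59 ± 0.10). In the cytosolic machinery 4 of 10 genes were higher (40%) and 0 lower, beside the same shares over all tested genes. The 4 were Ciapin1 (log2 0.95), Ciao3 (0.80), Nubp2 (0.52) and Ciao2a (0.47).

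Genes of heme a synthesis and of proteins that hold heme or work with it were higher for 13 of 19 (68.4%). They were lower for 4 (21.1%), with a median log2 fold change of 0.88. The shares over all tested genes were 22.6% and 21.7%. Cytochrome c1, Cyc1, rose from 53.0 ± 3.03 to 191 ± 34.3 CPM (log2 1.85 ± 0.12), cytochrome c, Cycs, from 90.2 ± 12.5 to 325 ± 57.3 CPM (1.85 ± 0.14), and Cox10, which begins the conversion of heme to heme a, from 9.87 ± 0.913 to 24.9 ± 0.640 CPM (1.33 ± 0.12). Cytoglobin, Cygb, a heme protein of fibroblast-like cells, fell from 191 ± 11.9 to 125 ± 4.28 CPM (log2 -0.61 ± 0.09). Over all 9 lists, without the 10 genes, 58 of 103 tested genes were higher (56.3%) and 15 lower (14.6%). The median log2 fold change was 0.45, and the lists were chosen with earlier results of these data known.

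**Figure D5:**
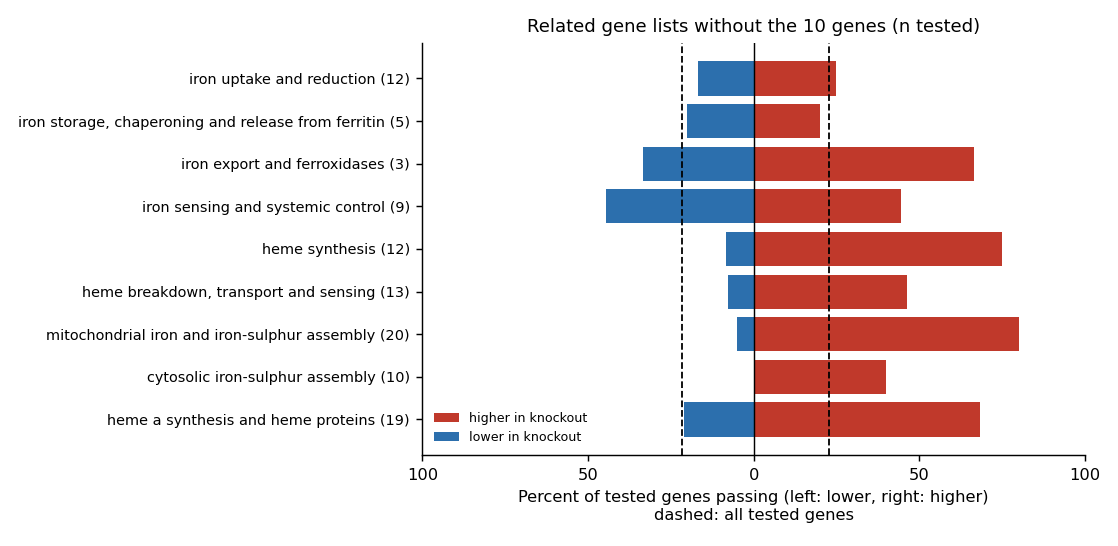
Percent of the tested genes of each list that passed as higher (right) or lower (left) in knockout, without the 10 genes; the number tested is in brackets and dashed lines give the shares over all tested genes, 22.6% and 21.7%. The bars for mitochondrial iron and heme synthesis reach farthest to the right, at 80% and 75%.

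Levels of different genes were compared as CPM per kilobase of annotated exon, which depends on the isoforms in the annotation. In wild type the order was Fth1 (684 ± 68.6), Ftl1 (360 ± 40.0), Hmox1 (179 ± 12.5), Alas1 (19.7 ± 2.98), Urod (13.1 ± 0.794), Fech (6.84 ± 0.175), Slc11a2 (6.23 ± 0.283), Tfrc (5.05 ± 0.119), Trf (0.671 ± 0.0841) and Slc40a1 (0.221 ± 0.0178), and no neighbours in this order overlapped. In knockout Hmox1 reached 422 ± 70.1 and overlapped with Ftl1 at 436 ± 53.7, while Alas1 reached 71.3 ± 6.31 and Urod 19.3 ± 3.002. Slc11a2 at 8.09 ± 0.702, Fech at 7.32 ± 0.275 and Tfrc at 6.09 ± 1.40 came next, each overlapping with its neighbour. Fth1 was the most abundant of the 10 per length in both genotypes, and Trf and Slc40a1 were the least.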

How the data were processed

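RNA of 6 libraries was read as pairs of 150 bp after depletion of ribosomal RNA, per the labels' protocols. The authors deposited raw counts for Ensembl genes in 1 table, and the submitters' processing notes name STAR, featureCounts and the builds mm10 and GRCm38. The sources used here give no versions, annotation, strand setting or treatment of shared reads, so counts of overlapping genes and near-identical copies are uncertain.

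Columns were matched by the names in the labels. GENCODE M21 (GRCm38) gave symbols, exon lengths and transcript sequences for 53706 of 53801 identifiers. Counts were tested with edgeR 4.0.16 (R 4.3.3): filterByExpr (minimum count 10, total 15), TMM factors of 0.975 to 1.02, robust legacy quasi-likelihood F test with genotype as the single term, 2-sided, Benjamini-Hochberg adjustment over 14816 genes at 0.05. CPM is relative to the scaled totals, except for marker sums, which use all counts. Intervals are 95%. The edgeR p-values set the difference between genotypes against the spread between replicates. The labels do not say whether replicates came from separate animals or pools, so what that spread covers is not known. P-values do not cover isolation or culture differences that coincide with genotype. The fit was also run on simulated counts with far fewer changed genes than were called here, so that run does not measure error rates in these data. Pseudogene copies were matched with BLAST+ 2.17.0 at 90% identity over 50% of the copy. Alternatives were RLE factors, upper-quartile factors, factors without the 50 most abundant genes, DESeq2 1.42.0, other filters, protein-coding genes alone, a replicate block, the library name suffix, copies added, and each library left out.

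The 10 genes and the lists were chosen with earlier results of these data known. From each list up to 3 genes with the smallest p in each direction were named, or all of 4 or fewer. Alad, Uros, Ppox, Blvra, Slc25a28, Fdx2, Hmox2, Pcbp1, Pcbp2, Nup214, Alas2, Hamp, Gm20425 and the markers Adipoq, Slc4a1, Gata1 and Cyp2e1 stand outside this rule and were picked with their values in view. Some genes that the rule or the lists would name are not reported here. Of 214 list entries 213 were matched.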

Additional observations from a re-analysis of the deposited data

How the results depend on the processing

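The 5 genes called higher (Alas1, Trf, Hmox1, Urod and Slc11a2) passed under every alternative run, and 0 of the 10 genes were called lower in any. Among the other members, 3 calls appeared: Ftl1 without the low-count filter (log2 fold change 0.28, edgeR adjusted p = 0.0336), Slc40a1 without knockout replicate 1 and Tfrc without knockout replicate 3. Leaving out single libraries, log2 fold changes ranged from 0.26 to 0.97 for Slc40a1, from 0.12 to 0.44 for Tfrc and from -0.13 to 0.0186 for Fth1, whose sign turned without wild-type replicate 3. The Slc40a1 to Tfrc log2 ratio ran from -0.20 to 0.82, and the count of called genes of iron sensing and systemic control from 5 to 8. The cause of these changes was not tested. The fits with a library left out also rest on fewer libraries. Over all genes, 5276 to 6674 passed with 1 library left out. Replicate numbers are shared by the labels, but same-numbered libraries did not deviate together (correlations of -0.13, 0.01 and -0.14), so they were not taken as pairs. With the number as a block, 6129 of the genes passed in place of 6561, and the 10 genes kept their calls, Alas1 at a log2 fold change of 1.86 and Slc40a1 at 0.62. Upper-quartile factors moved the split of calls over all genes to 2989 higher and 3688 lower, from 3342 and 3219. Low counts limit Trf and Slc40a1, and 3 against 3 libraries limit the ratios to an exact permutation p of 0.1.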
